A study of Mus musculus with 8 samples.

Results

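Tcf15, Otx2, Pou3f1, Lef1, Zic2, Zic5 and Sall2 are genes tied to the formative and primed states of pluripotency, and they were followed here in mouse embryonic stem (mES) cells with and without Trim71. The list held 8 genes, Fgf5 being the other one, and 7 of the 8 had a row among the 13558 transcripts of the deposited expression table. Fgf5, an FGF ligand of the primed epiblast, was not analysed here. The list was chosen by gene symbol with the normalized read counts of these same KO and WT libraries already known, so the differences between KO and WT are given as a description: no p-value is given for them, and nothing is read from whether they met the fold change criterion used for the whole table.

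Pluripotent cells pass from a naive state, like that of the inner cell mass, through a formative state to the primed state of the late epiblast, from which the germ layers arise. FGF signalling drives this change of state and leukaemia inhibitory factor holds cells in the naive state, although cultures in serum and leukaemia inhibitory factor hold cells at mixed positions along it. Tcf15 is a basic helix-loop-helix (bHLH) factor known from the somites of the embryo and from ES cells that are primed to differentiate. Otx2 and Pou3f1 are transcription factors of the formative epiblast, Lef1 carries Wnt signals to DNA together with beta-catenin, and the zinc finger factors Zic2, Zic5 and Sall2 act in epiblast and neural development.

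Polyadenylated RNA purified from total RNA of 8 mES cell samples was sequenced, 4 from Trim71 conditional cells, called WT, and 4 from Trim71-/- cells, called KO, to ask how the transcriptome of undifferentiated mES cells changes when Trim71, an RNA-binding protein with a ubiquitin ligase domain, is lost. The cells were male C57BL/6 cells of a pair of clones, E3 and 1, cultured with fetal calf serum and leukaemia inhibitory factor. All were sorted with magnetic beads for the surface antigen SSEA-1 before lysis, a step that enriches undifferentiated cells. How complete the sorting was is not known here. Both genotypes came from cells with loxP sites in both Trim71 alleles and a Cre recombinase fused to the oestrogen receptor, expressed from the ubiquitous Rosa26 locus. By the labels, KO cells had received 500 nM 4-hydroxytamoxifen (4-OHT) for 2 days and were then grown for at least 7 days. The study's methods give a lower dose and another culture time. The methods also name DMSO, the solvent, as the control treatment, and the labels do not say so for these samples. Loss of Trim71 and earlier exposure to 4-OHT go together here and cannot be told apart. KO replicates 1, 2 and 3 came from clone E3 (days 2, 3 and 4 in the labels) and KO replicate 4 from clone 1 (day 5). WT replicates 1 and 4 came from clone 1 (days 1 and 5) and WT replicates 2 and 3 from clone E3 (days 3 and 4). What the day stands for is not stated, and each clone is a single line, so p-values measure only the spread between these libraries, which may be partly technical.

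The values are normalized read counts: reads per transcript divided by a factor for sequencing depth, then corrected by the authors for the difference between clones. Reads recovered from these values summed to between 6676130 in WT replicate 2 and 24832099 in WT replicate 3. Trim71 itself, the check of the labels, had 568 ± 249 normalized read counts in KO and 2523 ± 367 in WT (SD, n = 4 each), and no KO library reached a WT library. The paper explains the reads left in KO by the deletion of exon 4 alone, the other exons still being transcribed. The values used here are per transcript, so this was not tested, nor was any share of cells with an undeleted allele. The summed level of 6 ES cell markers was 41890 to 48988 in KO and 38065 to 44054 in WT. Of markers of other cells, 9 of 10 for primitive endoderm had a row, with sums of 3374 to 5481 in KO and 1881 to 3997 in WT, and 6 of 9 neural markers summed to 808 to 1059 in KO and 968 to 1629 in WT. The ranges were 152 to 262 and 109 to 205 for 5 of 10 fibroblast markers, of which Twist1 was higher in KO at the criterion given below, 127 to 155 and 73.0 to 178 for 5 of 6 mesoderm markers, and 1760 to 3462 and 1750 to 2837 for 4 of 5 trophoblast markers. Among the defining markers, Afp, Dcx, Hes5, Mesp1, Elf5, Dcn, Lum, Postn and Col3a1 had no row. The part of these cell types in the results below was not tested, and in bulk RNA fewer cells of a type and less RNA per cell cannot be told apart.

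Of the 7 genes, Tcf15 was higher in KO and Zic5 was lower at the fold change criterion used throughout, an unadjusted p under 0.05 by limma together with a fold change of at least 1.5. That is 2 of 7 genes, where 4.25% of all transcripts met the criterion, 238 of them higher in KO (1.76%) and 338 lower (2.49%). Only Tcf15 showed no overlap between the 4 KO and the 4 WT libraries, which was the case for 10.1% of all transcripts, 5.48% higher and 4.62% lower in KO. Because the 7 genes were chosen with this comparison in view, nothing is read from these shares. After Benjamini-Hochberg adjustment limma called 0 of 13558 transcripts, with 1232 at an unadjusted p under 0.05. The same limma test called 6 once the clone correction was undone, and voom on the recovered reads called 2. The median log2 fold change was 0.02 over the 7 genes and −0.00036 over all transcripts, and its median size was 0.63 and 0.18. The 7 genes did not move one way: 4 of the log2 fold changes were above 0 and 3 below.

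**Figure D1:**
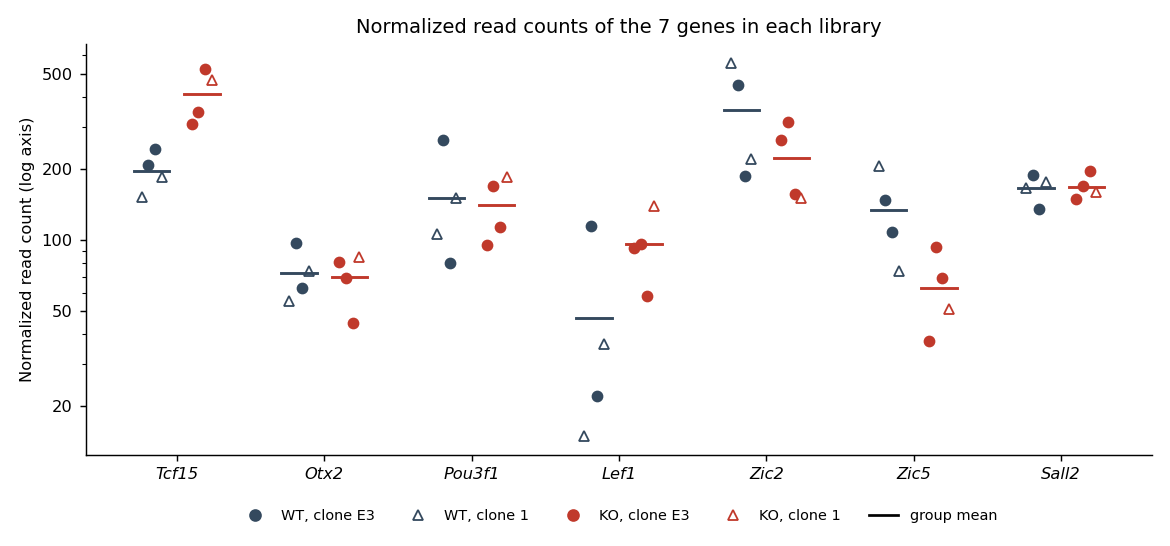
Normalized read counts (log axis) of the 7 genes in the 4 WT (grey) and 4 KO (red) libraries. Filled circles are clone E3, open triangles clone 1 and horizontal lines group means. The KO points of Tcf15 all lie above the WT points, those of Zic5 lie mostly below, and Lef1 has 3 low WT libraries and 1 high one.

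Tcf15 lies on the plus strand at chr2:152143561-152149097 (mm10) and has 2 exons. Its normalized read count in KO, replicates 1 to 4 in order, was 309, 348, 528 and 471, and in WT 152, 207, 242 and 183. Every KO library stood above every WT library, also with the clone correction undone, where KO ran from 277 to 504 and WT from 174 to 216. The library of day 4 was the highest of each genotype in the deposited values and that of day 5 with the correction undone. The means were 414 ± 103 in KO and 196 ± 38.2 in WT (SD, n = 4 each), a ratio of 2.11. The log2 fold change from the fit across all transcripts was 1.03 with a standard error (SE) of 0.23. Over the 17 settings tried it lay between 0.78, without KO replicate 4, and 1.17, without WT replicate 3. The values rested on 99 to 536 recovered reads per library.

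The transcripts whose log2 profile over the 8 libraries lay nearest to that of Tcf15 were Zbtb7c, Plxnb2, Zc3h12a, Rtkn and Sec14l1. The measure was the root mean square difference of log2(value + 1) after centring each profile on its own mean over the 8 libraries. It was 0.067 for Zbtb7c, 0.12 for both Plxnb2 and Zc3h12a, 0.15 for Rtkn and 0.17 for Sec14l1. Zbtb7c, a zinc finger factor, ran from 27.0 to 42.4 normalized read counts in KO and from 12.5 to 17.7 in WT. Plxnb2, the semaphorin receptor plexin B2, ran from 2903 to 5280 in KO and from 1711 to 2632 in WT. In the deposited values all 5 shared with Tcf15 the lowest value in WT replicate 1 and the highest in KO replicate 3, whereas with the clone correction undone Tcf15 was lowest in WT replicate 2 and highest in KO replicate 4. Being picked for likeness to a gene whose groups do not overlap fixes that theirs differ too. None of the other 6 genes was close to Tcf15 by this measure, which does not scale for how much a gene varies. Sall2 had the smallest distance, 0.61 at rank 5177 of the transcripts, but varied little and had a log2 fold change of 0.02. Lef1, which was higher in KO like Tcf15, was 0.85 away.

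**Figure D2:**
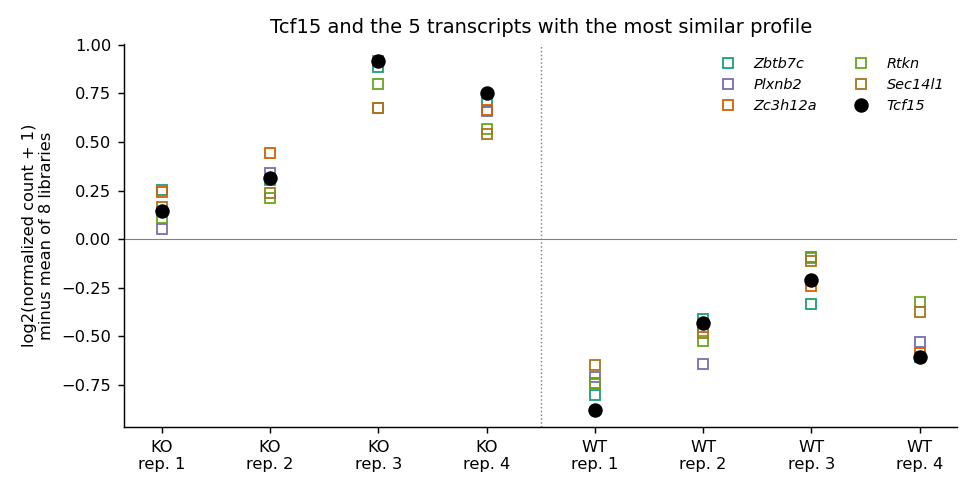
Centred log2(normalized count + 1) of Tcf15 (black circles) and of the 5 transcripts nearest to it (open squares) in each of the 8 libraries, KO on the left and WT on the right of the dotted line. Zero is each transcript's own mean over the libraries. All 6 transcripts are above 0 in every KO library and below 0 in every WT library.

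Otx2, a homeobox factor that takes cells out of the naive state, lies on the minus strand at chr14:48657677-48673819. Its normalized read counts were 81.0, 68.9, 44.7 and 85.1 in KO and 55.6, 97.3, 62.7 and 74.1 in WT, replicates 1 to 4. The groups overlapped over most of their range, with the highest value in a WT library and the lowest in a KO library. The means were 69.9 ± 18.2 and 72.4 ± 18.3 (SD, n = 4 each) and the log2 fold change was −0.05 (SE 0.27). With 25 to 93 reads per library these values are coarse. Exons of Otx2 overlap those of the antisense transcript Otx2os1, and the library kit does not mark strand, so reads of the pair cannot be separated in the overlap.

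Pou3f1, a POU domain factor of the formative epiblast and of neural progenitors, is a single-exon gene on the plus strand at chr4:124656807-124660655 and overlaps the antisense gene Gm2164. Pou3f1 counted 94.97, 169, 113 and 185 normalized reads in the KO libraries and 106, 265, 80.3 and 151 in the WT libraries, in the order of their replicates. Both the highest and the lowest library were WT, and the KO libraries lay between them. The means were 140 ± 43.2 in KO and 150 ± 81.9 in WT (SD, n = 4 each). The log2 fold change was 0.03 (SE 0.42) and had no stable sign, being 0.57 without WT replicate 2 and −0.33 without WT replicate 3.

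Lef1 lies on the plus strand at chr3:131110471-131224356, and its exons overlap those of the antisense gene Gm43352. Its 4 KO libraries had 92.8, 96.1, 58.1 and 139 normalized read counts and its 4 WT libraries 14.9, 114, 22.1 and 36.6. WT replicates 1, 3 and 4 were below every KO library, while WT replicate 2 was above 3 of them. With the clone correction undone, WT replicate 4 (48.5) stood above KO replicate 3 (46.2). The means, 96.5 ± 33.0 in KO and 46.9 ± 45.7 in WT (SD, n = 4 each), had a ratio of 2.06, and the WT libraries spanned a 7.65-fold range. The log2 fold change was 1.32 with an SE of 0.63, the largest of both among the 7 genes. It did not meet the criterion in the main fit and met it in 3 of the 17 settings. It was 2.15 without WT replicate 2, the shallowest library, and 1.86 by voom on the recovered reads, and it was 0.66 without KO replicate 4.

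Zic2 and Zic5 are neighbours on chromosome 14 with divergent transcription, Zic5 on the minus strand at chr14:122456795-122465677 and Zic2 on the plus strand at chr14:122475435-122479852, their starts 9757 bases apart. For Zic2 the 4 KO libraries had normalized read counts of 263, 313, 157 and 151, and the 4 WT libraries of 560, 452, 186 and 220. WT replicates 1 and 2 were above all KO libraries and WT replicates 3 and 4 lay within the KO range. The means were 221 ± 80.3 in KO and 354 ± 181 in WT (SD, n = 4 each), with a log2 fold change of −0.63 (SE 0.45). It ranged from −1.07 without WT replicate 3 to −0.30 without KO replicate 4. With the day as a block it was −0.44 with an SE of 0.11.

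Zic5 counted 37.7, 93.3, 69.4 and 51.1 in KO, against 206, 147, 108 and 74.0 in WT. In the deposited values KO replicates 1, 3 and 4 were below every WT library, and the groups overlapped only through KO replicate 2 and WT replicate 4. With the clone correction undone, KO replicates 2 (104) and 3 (80.4) both stood above WT replicate 4 (62.9). The means were 62.9 ± 24.1 and 134 ± 56.4 (SD, n = 4 each), a ratio of 0.47, and the log2 fold change was −1.09 (SE 0.40). Zic5 did not meet the criterion when KO replicate 1 (−0.89) or 4 (−1.004) or WT replicate 2 (−1.01) was left out, nor with the linear model on untransformed values (−1.09). With the day as a block the log2 fold change was smaller, −0.61 with an SE of 0.09. It met the criterion there, as 7.49% of all transcripts did with the block, 4.35% of all transcripts in the lower direction. Nothing is read from these calls, because Zic5 was chosen with the same libraries in view.

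Zic2 over Zic5 was 2.62 ± 0.62 in WT and 3.89 ± 2.12 in KO (SD, n = 4 each), with ranges of 1.72 to 3.06 and 2.26 to 6.99. KO replicate 1, where Zic5 was lowest, gave the value of 6.99. KO replicate 2, at 3.36, was also above the WT libraries, and the other two KO libraries lay among them. By the likeness measure used for Tcf15, Zic2 was the nearest of the other genes to Zic5, 0.54 away and at rank 264 of all transcripts. Counted from Zic2, at the same distance, Zic5 stood at rank 1442. Genes that are not neighbours had ranks of similar size, such as 402 for Pou3f1 counted from Lef1.

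Sall2, a zinc finger factor of the spalt family, lies on the minus strand at chr14:52311172-52328762. It had 148, 170, 195 and 159 normalized read counts in KO and 166, 189, 135 and 176 in WT. The KO and WT values were interleaved. The means of 168 ± 20.002 and 166 ± 23.0 (SD, n = 4 each) differed by less than the spread between libraries, with a log2 fold change of 0.02 (SE 0.16).

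A KO and a WT library of the same clone were present for each of days 3, 4 and 5, and they give the comparison within a day. Tcf15 was higher in KO on all 3 days, by 0.74, 1.12 and 1.36 on the log2 scale. This held for 24.6% of all transcripts. Zic5 was lower in KO on the same 3 days, by −0.65, −0.64 and −0.53, and Zic2 by −0.53, −0.25 and −0.54, as 25.5% of all transcripts were. The Zic5 differences within days were closer to each other than its levels were between days. Lef1 was −0.24 on day 3, where the WT library was the high one, and 1.36 and 1.89 on days 4 and 5. Otx2, Pou3f1 and Sall2 changed sign between days, with −0.49, −0.48 and 0.20 for Otx2, −0.65, 0.49 and 0.30 for Pou3f1, and −0.15, 0.53 and −0.15 for Sall2.

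**Figure D3:**
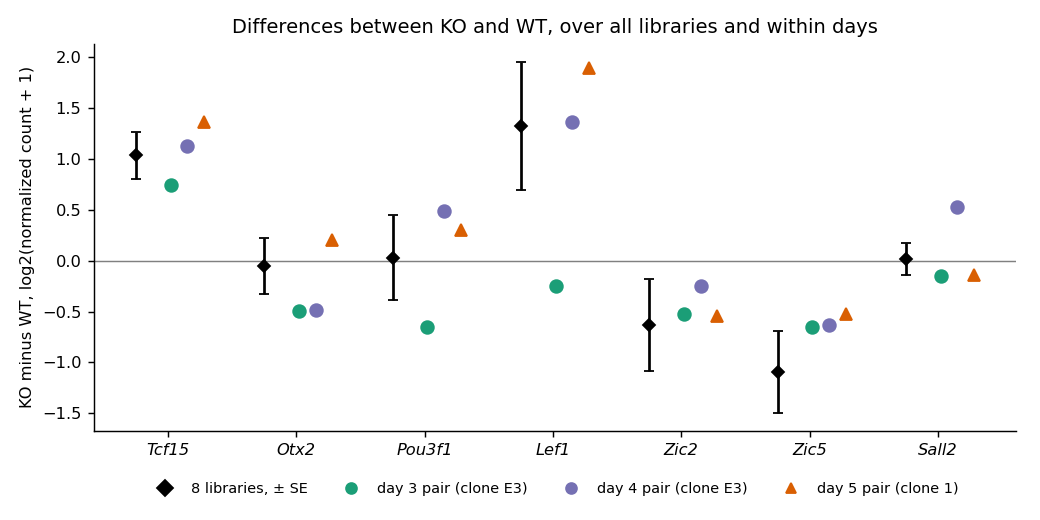
KO minus WT differences of log2(normalized count + 1) for the 7 genes. Black diamonds with bars are the fit over 8 libraries ± SE, and coloured points are the pairs of libraries of days 3 and 4 (circles, clone E3) and day 5 (triangles, clone 1). Tcf15 points are all above 0, those of Zic2 and Zic5 all below, and the rest fall on both sides.

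Within clone E3 the log2 difference for Tcf15 was 0.78 and within clone 1 it was 1.49. The differences for Zic5 were −1.004 and −1.26 in the same order, and those for Zic2 −0.30 and −1.21. For Lef1 they were 0.66 in E3 and 2.51 in clone 1. Otx2 and Pou3f1 had opposite signs in the clones, −0.31 and 0.40 for Otx2 and −0.26 and 0.55 for Pou3f1, while Sall2 was near 0 in both, at 0.089 and −0.11. Clone 1 had 1 KO library, KO replicate 4, so these gaps were loose, and they depended on the authors' correction for clone. The fits without KO replicate 4 compare the genotypes within E3 alone. Their values are therefore these E3 differences and not a separate result. The gap, E3 minus clone 1, was −1.86 (SE 1.21) for Lef1 and −1.01 (SE 1.51) with the correction undone, 0.91 (SE 0.94) and 1.24 (SE 0.93) for Zic2, and −0.72 (SE 0.44) and −0.46 (SE 0.47) for Tcf15.

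Levels can be compared between genes per length of transcript, and on that scale Tcf15 was the most abundant of the 7 genes and Lef1 the least in WT. Tcf15 had 200 ± 39.0 normalized read counts per kb in WT and Zic2 145 ± 74.1 (SD, n = 4), with overlapping ranges. Zic2 was clear of the next gene, Pou3f1, at 39.1 ± 21.3. Sall2 at 32.3 ± 4.46, Zic5 at 28.1 ± 11.8, Otx2 at 27.9 ± 7.05 and Lef1 at 13.5 ± 13.1 each overlapped their neighbour in this order. The median over the 12853 transcripts with a length was 118 per kb in WT, so only Tcf15 and Zic2 were above the middle of the table. For scale, Pou5f1, the core pluripotency factor Oct4, had 11498 per kb in WT and Nanog 6139. In KO, Tcf15 had 423 ± 105 per kb, Lef1 moved up to the fifth place with 27.7 ± 9.49 and Zic5 took the last with 13.2 ± 5.06.

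**Figure D4:**
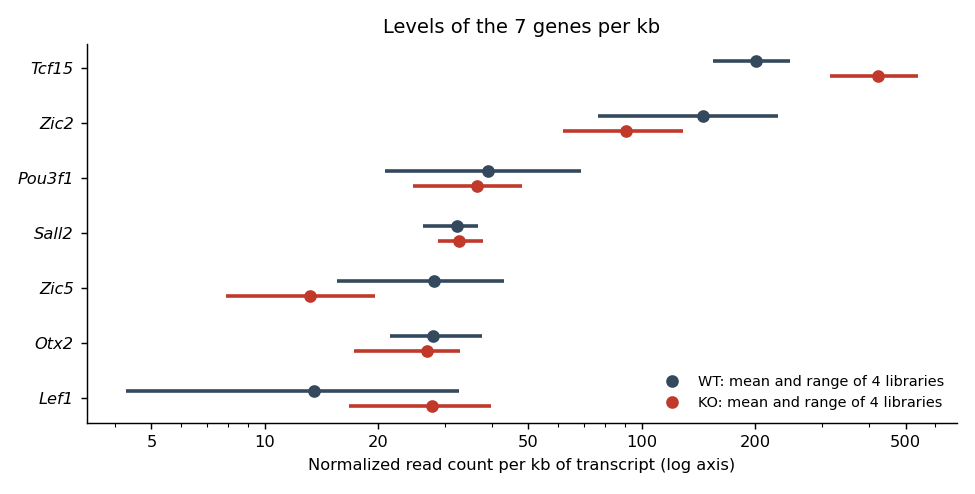
Normalized read counts per kb of transcript (log axis) for the 7 genes, ordered by their WT mean. Points are means and lines the range over the 4 WT (grey) or 4 KO (red) libraries. Tcf15 and Zic2 stand apart from the other 5 genes in WT, and Lef1 has the longest WT range.

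Several of the genes varied more between libraries of one genotype than transcripts of similar level. The SD of log2(value + 1) within groups was 0.95 for Lef1, above 95.7% of transcripts of similar mean, 0.66 for Zic2 (96.3%) and 0.61 for Pou3f1 (92.4%). Zic5 followed at 0.59 (86.3%), Tcf15 at 0.32 (75.1%) and Otx2 at 0.38 (57.8%). Sall2 was the steadiest with 0.19 (25.8%). The SE of the log2 fold change in the main fit, which leaves out the day, was over 0.4 for 4 of the 7 genes. The median over all transcripts was 0.19. With the day as a block over 6 libraries, the SE of those 4 genes was 0.46 for Lef1, 0.26 for Pou3f1, 0.11 for Zic2 and 0.09 for Zic5. That of Sall2 went the other way, from 0.16 to 0.18.

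The other genes of the same pathways were taken from lists chosen with earlier results of these data known. Of 26 other formative and epiblast genes, 24 had a row and 4 met the criterion, 2 in each direction, where 4.25% of all transcripts did (1.76% higher and 2.49% lower), with a median log2 fold change of 0.02. Etv4, an ETS factor that responds to FGF signals, was higher in KO with 3010 ± 494 against 1788 ± 526 normalized read counts (SD, n = 4 each), a log2 fold change of 0.75 (limma adjusted p = 0.483). The groups did not overlap, yet the call was lost without KO replicate 4 (0.42) and without WT replicate 3 (0.74). Cldn6, a tight junction claudin, was higher with 1522 ± 223 against 1001 ± 197 and a log2 fold change of 0.61 (adjusted p = 0.457). The criterion was no longer met for Cldn6 with the day as a block (0.57), nor when KO replicate 3 (0.54) or 4 (0.50) or WT replicate 1 (0.56) or 2 (0.48) was left out.

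Fgf15 and Wnt8a, secreted ligands, were lower in KO at very low levels. Fgf15 had 7.25 ± 2.89 in KO and 14.8 ± 2.77 in WT (SD, n = 4 each), with as few as 3 reads in a library and a log2 fold change of −1.02 (adjusted p = 0.452). The call was lost with the day as a block (−0.78), with a pseudocount of 10 (−0.54) and without KO replicate 4 (−0.70). Wnt8a had 13.7 ± 2.92 and 25.01 ± 3.47, a log2 fold change of −0.86 (adjusted p = 0.416), and the groups did not overlap. The call for Wnt8a was lost with a pseudocount of 10, where the log2 fold change was −0.58. With the day as a block, where 7.49% of all transcripts met the criterion, the list still had 4 genes past it, Etv4, Wnt8a and, named after their values were seen, Foxd3 (0.67) and Cdh2 (−0.64).

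FGF signalling acts upstream of the formative genes. Of 9 FGF ligands and receptors 8 had a row, and 2 met the criterion, both lower in KO, against 2.49% of all transcripts. Besides Fgf15 this was Fgfr2, the receptor, with 257 ± 18.9 in KO and 400 ± 31.7 in WT (SD, n = 4 each) and a log2 fold change of −0.64 (SE 0.12, adjusted p = 0.367). All 4 KO libraries of Fgfr2, at 237 to 274, were below the WT libraries, at 355 to 424, and the fold change dropped under 1.5 without KO replicate 4 (−0.56). With the day as a block 4 genes of this list met the criterion, against 7.49% of all transcripts, Fgfr2 and, named after their values were seen, Fgf17, Fgfr3 and Fgfr4, which were higher in KO with log2 fold changes of 0.83, 0.66 and 0.85.

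Tcf15 binds DNA with E proteins, and Id proteins hold these back. All 7 listed bHLH partners and Id inhibitors had a row, and Id1 was the one past the criterion, which 4.25% of all transcripts met. The 4 KO libraries of Id1 had 303, 640, 499 and 718 normalized read counts, and the 4 WT libraries 37.6, 384, 161 and 151. Only WT replicate 2 overlapped the KO libraries, by exceeding KO replicate 1. The log2 fold change of Id1 was 1.72 with an SE of 0.66 (adjusted p = 0.516). The criterion was not met when KO replicate 2 (1.68), 3 (1.79) or 4 (0.88) or WT replicate 3 (1.66) was left out.

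All 16 naive pluripotency genes had a row and 2 met the criterion, against 4.25% of all transcripts, with a median log2 fold change of 0.01. Gbx2, a homeobox factor of naive ES cells and of the neural plate, was higher in KO with 843 ± 218 against 407 ± 190 (SD, n = 4 each) and a log2 fold change of 1.07 (adjusted p = 0.486). Tcl1, a co-activator of Akt kinase, was lower with 337 ± 61.1 against 591 ± 138 and a log2 fold change of −0.81 (adjusted p = 0.452). Gbx2 lost the call without KO replicate 4 (0.62) and WT replicate 3 (0.98), and Tcl1 without KO replicate 4 (−0.71). With the day as a block 4 naive genes met the criterion, against 7.49% of all transcripts, these 2 and, named after their values were seen, Klf4 and Klf5, both higher in KO with 0.73 and 0.68.

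None of the 4 general pluripotency genes met the criterion, which 4.25% of all transcripts met. Pou5f1 had a log2 fold change of 0.25 (SE 0.17), Sox2 of 0.06 (SE 0.25) and Sall4 of −0.24 (SE 0.14). Of 13 streak and mesendoderm genes, which mark the first steps of gastrulation, 7 had a row and none met the criterion. The 3 most abundant were Nodal at 0.43 (SE 0.25), Lefty1 at −1.68 (SE 0.88) and Lefty2 at −0.60 (SE 0.50). For Lefty1 the value rested on KO replicate 4, with 27.2 normalized read counts, and was −0.27 without it. That library held 112 recovered reads of Lefty1, and with the clone correction undone the log2 fold change was −1.09.

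Relatives of the 7 genes were also read. Of 11 other Tcf/Lef factors and Wnt targets, 10 had a row and none met the criterion, against 4.25% of all transcripts. The 3 most abundant were Ctnnb1, the gene of beta-catenin, at 0.04 (SE 0.12), Tcf7 at −0.19 (SE 0.26) and Tcf7l1 at −0.05 (SE 0.16). Of 6 other Zic and Sall genes, 4 had a row and none met the criterion. Sall1 was at 0.11 (SE 0.24), close to the 0.02 of Sall2.

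Of 5 other Otx and class III POU genes, 2 had a row, Otx1 at 0.27 (SE 0.37) and Pou3f3 at 0.17 (SE 0.39). Neither met the criterion, against 4.25% of all transcripts. Of 8 genes that go with Tcf15 in somites, 3 had a row and none met the criterion, with log2 fold changes of 0.57 for Meox1, −0.13 for Tbx6 and 0.45 for Mesp2. Their means were between 12.9 and 29.9 normalized read counts in KO and between 15.7 and 21.2 in WT.

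**Figure D5:**
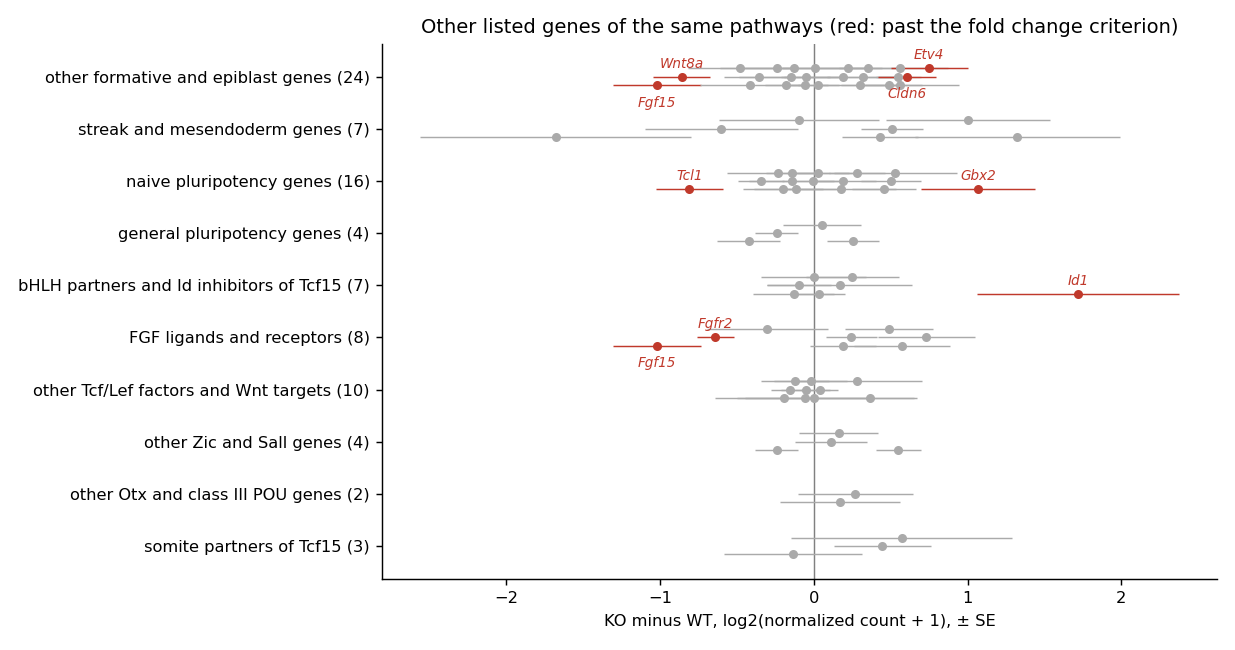
Log2 fold changes, KO minus WT of log2(normalized count + 1), with SE bars, for the listed genes of the same pathways (number with a row in brackets). Red points are past the criterion (unadjusted p under 0.05 and at least 1.5-fold) and named. The 4 named formative genes fall on both sides of 0, and Id1 lies farthest to the right at 1.72.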

How the data were processed

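Poly(A) RNA of 8 samples was prepared with the TruSeq RNA v2 kit. Per the labels and the methods, the authors aligned reads to mm10 with TopHat2 and Bowtie2 2.2.1 after CASAVA 1.8, counted reads per RefSeq transcript in Partek 6.6, normalized with DESeq2, corrected for clone, set values under 1 to 1 and removed transcripts whose higher group mean was under 10. The deposited values are this signal, a normalized and batch-corrected read count. The correction is additive, so relative to their size it shifts low values most.

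Whole reads before the correction were recovered for 13458 of 13558 transcripts (99.3%) from the steps of the values. These gave the depth, 6676130 to 24832099 reads per library. All 8 libraries entered the main fit with genotype and clone as terms (limma 3.58.1, R 4.3.3, values as log2(value + 1)), with no other filter. Fold changes on this scale understate low genes. The criterion was an unadjusted p under 0.05 and at least 1.5-fold, and adjusted p-values are Benjamini-Hochberg over all transcripts. The read recovery and the main fit were tried on simulated counts, for the fit with planted changes larger than the criterion and no day effect. The other fits were not tried in this way. The members and lists were chosen with earlier results of these data known. The text names every listed gene past the criterion, the 3 most abundant where none passed, and the 5 transcripts nearest to Tcf15. One gene that this rule names is not reported here. Positions and lengths are from GENCODE M21, the same build.

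Libraries of 1 day pair KO and WT: with the clone correction undone, deviations from group means correlated by 0.519 to 0.627 in the 3 same-day pairs and by −0.417 to 0.335 in 13 other pairs. In the deposited values, on which the main fit rests, these ranges were −0.228 (day 5) to 0.540 and −0.581 to 0.309. The pairing is taken from the day in the labels. The alternatives were a pseudocount of 10, a mean of at least 50, no clone term, a replicate block by day over 6 libraries, the clone correction undone (with and without the block), voom on recovered reads, an ordinary linear model on untransformed values, and each library left out.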

Additional observations from a re-analysis of the deposited data

How the results depend on the processing

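The number of the 7 genes at the criterion was 2, but 3 with no clone term and 3 with voom. It was 1 with the linear model and 1 to 3 when 1 library was left out. Otx2 moved to −0.44 with the clone correction undone and the replicate block by day. The block ended the calls of Cldn6 and Fgf15 and changed none of the 7 genes' calls. The 7 genes were chosen with these same libraries in view, so nothing is read from whether their calls stayed.

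Counts over all transcripts depended on the setting. With a mean of at least 50, 315 met the criterion (139 higher, 176 lower), with the block 1015 (425 and 590), with the correction undone and the block 1025 (430 and 595), and with the linear model 382 (216 lower). Leaving out 1 library gave 260 (without KO replicate 4) to 835, with 115 to 452 higher and 145 to 457 lower. Adjusted p-values under 0.05 numbered 6 with the correction undone and 2 with voom, and 0 in each fit without a library. The interaction of genotype and clone was called for 12 transcripts, 0 with a pseudocount of 10, a mean of at least 50, the correction undone, voom or the linear model, and 0 to 76 without a library. With KO replicate 4 left out, no interaction could be fitted.

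The formative list went from 4 to 2 with a pseudocount of 10 or a mean of at least 50, and to 1 to 6 without a library. The naive list went from 2 to 4 with the block, on corrected or undone values, and to 0 to 4 without a library. The FGF list went from 2 to 4 with the block, 5 with the correction also undone, and 1 to 4 without a library. Without a library, the streak, general pluripotency, Tcf/Lef, and Zic and Sall lists gave 0 to 1, and the bHLH list 0 to 2. Of the 7 genes and the named genes of the pathway lists, none that met the criterion turned its sign in these settings. The settings refit the same libraries in which these genes had met it. A kept sign was thus close to fixed in advance, and nothing is read from it. With 25 to 93 reads of Otx2 and 23 to 113 of Lef1 per library, depth limits both.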
